A study of Homo sapiens with 12 samples.

Results

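The plasminogen activators PLAU and PLAT, the urokinase receptor PLAUR and the serpins SERPINE2 and SERPINB2 were described in IMR90, a human lung fibroblast line. They are 5 of the 16383 genes of the deposited table, chosen by symbol. RNA captured by its poly(A) tail was sequenced in 12 libraries, 3 in each of 4 groups of wild-type cells. Proliferating cells had no treatment. The other groups were made senescent with 20 Gy of ionizing radiation given over 10 min and harvested on day 11. They received DMSO, 2 µM palbociclib, an inhibitor of the cell cycle kinases CDK4 and CDK6, or 2 µM ruxolitinib, an inhibitor of the Janus kinases. Inhibitors were given on days 4, 6, 8 and 10 after irradiation. The labels name a single cell line and do not say whether the libraries of a group came from separate cultures, so the p-values measure the spread between these libraries, which may be technical. The proliferating group was not irradiated, so radiation, time in culture and growth arrest cannot be told apart in its comparison with DMSO cells.

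In the GRCh38 annotation (GENCODE v44) PLAU lies on chromosome 10 from 73909177 to 73917496 and PLAT on chromosome 8 from 42174718 to 42207709. PLAUR lies on chromosome 19 from 43646095 to 43670547, SERPINE2 on chromosome 2 from 223975045 to 224039318, and SERPINB2 on chromosome 18 from 63871692 to 63903888. An antisense gene, C10orf55, covers 31% of the exon bases of PLAU, and an unnamed gene model on the same strand covers 20% of those of SERPINB2. The strand setting of the counting is not given in the sources used here, so reads of these overlaps could not be assigned to 1 gene with certainty.

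Plasminogen is a zymogen that is cleaved to the protease plasmin, which degrades fibrin and matrix proteins. PLAU encodes urokinase, the activator that works mainly at the cell surface, bound to the receptor encoded by PLAUR. PLAT encodes tissue-type plasminogen activator, best known for dissolving fibrin. Serpins are inhibitors that trap a protease in a covalent complex. SERPINE2 encodes protease nexin 1, a secreted inhibitor of thrombin, urokinase and tissue-type activator. SERPINB2 encodes plasminogen activator inhibitor 2, which inhibits urokinase and stays largely inside the cell. Genes of this system are counted among the secretory products of senescent fibroblasts.

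PLAU and SERPINB2 were the genes of the 5 that tested lower with palbociclib than with DMSO as deposited (adjusted p under 0.05 in limma). For that reason, sequences before their start sites are shown. PLAT tested lower only under other settings, and was left out of the promoter search. The sequences are given 5′ to 3′ from RefSeq (GRCh38.p14). For SERPINB2 they are the 250 bases before the listed RefSeq start (chr18:63887455-63887704, plus strand). The GENCODE v44 gene begins upstream, at 63871692, so this window lies inside it. For PLAU they are the 220 bases that end 30 bases before the downstream of 2 listed starts (chr10:73910882-73911101, plus strand). Capitals mark TGANTCA (the AP-1 motif) and TATAAA (the TATA box) in SERPINB2, and GGGCGG (the GC box) in PLAU.
SERPINB2: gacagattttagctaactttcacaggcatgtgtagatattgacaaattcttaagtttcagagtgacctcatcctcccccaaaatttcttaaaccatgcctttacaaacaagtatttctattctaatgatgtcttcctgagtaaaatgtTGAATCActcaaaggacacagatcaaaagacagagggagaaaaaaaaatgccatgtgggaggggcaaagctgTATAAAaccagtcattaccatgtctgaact
PLAU: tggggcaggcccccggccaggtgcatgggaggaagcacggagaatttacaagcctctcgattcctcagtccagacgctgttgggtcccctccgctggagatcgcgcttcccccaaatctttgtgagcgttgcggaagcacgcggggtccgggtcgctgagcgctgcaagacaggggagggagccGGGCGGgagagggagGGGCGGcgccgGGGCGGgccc
G and C made up 37.2% of the SERPINB2 stretch and 69.1% of the PLAU stretch, but 46.8% of the 250 bases before the upstream PLAU start, so the contrast depends on which start is taken. SERPINB2 held 1 match to TGANTCA, starting 102 bases before the start site, and 1 match to TATAAA, starting 30 bases before it. The PLAU stretch held 3 matches to GGGCGG and none to the others, and the window before the upstream PLAU start held none of the 3 motifs. Searched on both strands, TGANTCA was found in 6.57%, TATAAA in 10.7% and GGGCGG in 42.6% of 35116 RefSeq windows of 250 bases. The PLAUR window held 1 match to TGANTCA, and the 2 windows of SERPINE2 held none. A match is a description of letters, not of binding.

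Over the listed genes the recovered reads ranged from 14106799 to 21762412 per library. All 5 genes were read in every library, with 29 reads or more for SERPINB2 and 1432 or more for each of the other genes. Values are the authors' normalized counts, which are reads divided by a factor per library. Differences were tested with limma on log2(normalized count + 1) in a fit of 11242 genes with a mean of at least 10, and a gene was called at a Benjamini-Hochberg adjusted p under 0.05. The median log2 fold change of all tested genes lay between -0.06 and 0.02 in the 6 comparisons. With every library at the same total, that median shifts by 0.23 in DMSO and 0.20 in ruxolitinib cells relative to proliferating cells. It shifts by -0.23 in palbociclib cells relative to DMSO and by -0.20 relative to ruxolitinib. At the same upper quartile the shifts relative to proliferating cells are 0.15 for DMSO and 0.17 for ruxolitinib.

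The first comparison asked how the 5 genes differed in irradiated, DMSO-treated cells from proliferating cells. Both serpins and both activators were higher and the receptor was lower, so all 5 were called, where 72.4% of all tested genes were called, 33.0% of them higher and 39.3% lower as shares of the tested genes. The groups did not overlap for any of the 5, as for 75.1% of all tested genes. The changes ran from 24.1-fold for SERPINB2 to 1.23-fold for PLAU.

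**Figure D1:**
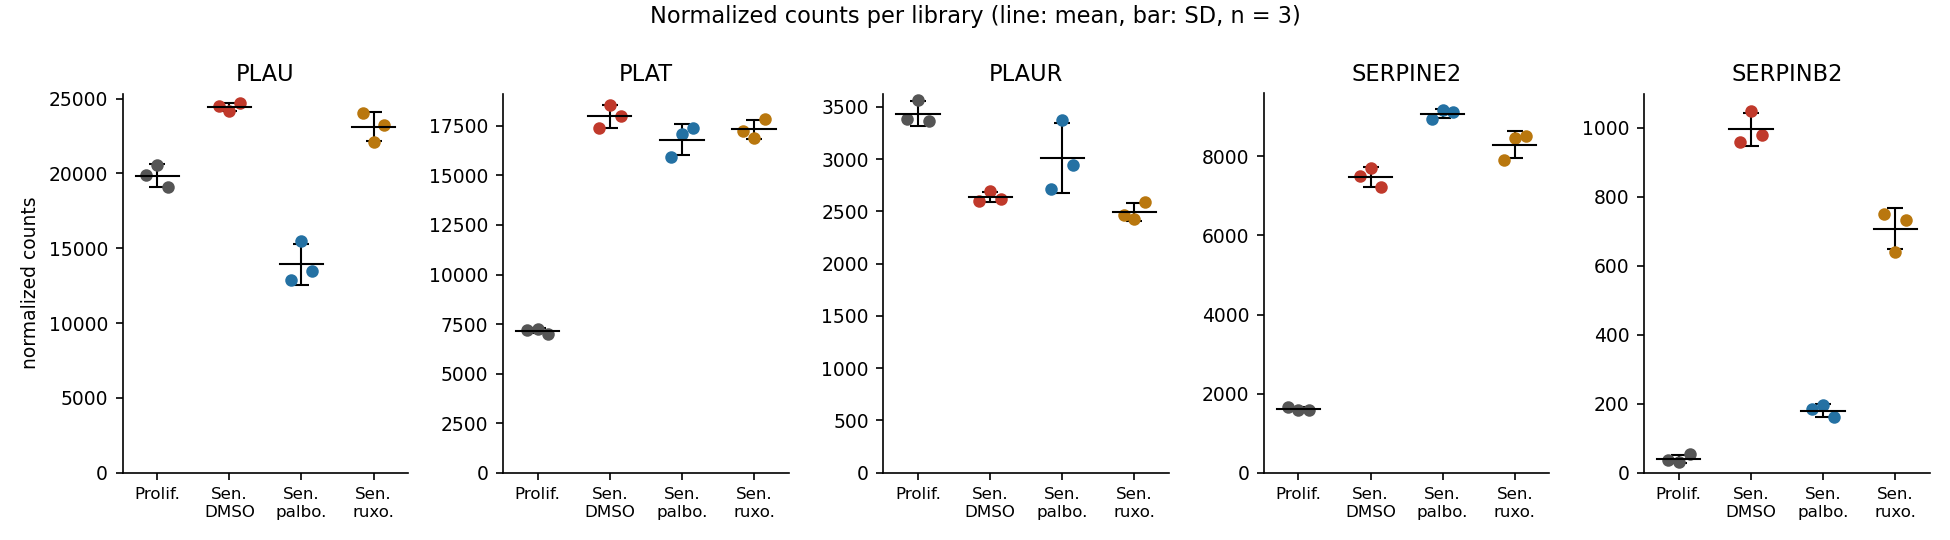
Normalized counts of PLAU, PLAT, PLAUR, SERPINE2 and SERPINB2 (vertical axes from 0, each on its own scale) in the 12 libraries by group, with points for libraries, lines for means and bars for SD (n = 3). PLAT and SERPINE2 are high in all 9 irradiated libraries, while SERPINB2 is between 160.8 and 197.0 in the palbociclib libraries and between 639.3 and 1049 in the other irradiated ones.

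Among the activators, PLAT stood at 7225, 7255 and 7013 normalized counts in proliferating cells and at 17404, 18552 and 17989 in DMSO cells. All 3 DMSO libraries were far above the proliferating ones, and the log2 fold change was 1.33 (SE 0.05, adjusted p 1.62e-12 in limma). PLAU stood at 19926, 20558 and 19069 in proliferating cells and at 24502, 24181 and 24712 in DMSO cells. The DMSO libraries were again the higher ones, by a smaller margin, with a log2 fold change of 0.30 (SE 0.06, adjusted p 0.000467). The PLAU increase was larger at the same total (0.53), at the same upper quartile (0.455) and under quantile normalization (0.45). Per kb of the canonical transcript, where levels of different genes can be set side by side, PLAU was at 8472 ± 319 (SD, n = 3) and PLAT at 2340 ± 43.1 normalized counts in proliferating cells. In DMSO cells these per-kb levels were 10442 ± 114 for PLAU and 5873 ± 187 for PLAT, so PLAU stayed the more abundant activator.

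The receptor moved the other way from its ligand. PLAUR stood at 3380, 3570 and 3360 normalized counts in proliferating cells and at 2602, 2693 and 2618 in DMSO cells, without overlap. Its log2 fold change was -0.38 (SE 0.07, adjusted p 8.64e-05 in limma). The direction of this fall held under each scaling tried, but with libraries at the same total it was -0.15 with an adjusted p of 0.0551, so the call rested on the scaling.

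Both serpins rose further than the activators did. SERPINE2 stood at 1664, 1588 and 1580 normalized counts in proliferating cells and at 7494, 7710 and 7217 in DMSO cells, a log2 fold change of 2.21 (SE 0.05, adjusted p 8.74e-15 in limma). SERPINB2 stood at 37.4, 32.2 and 54.3 in proliferating cells, from 36, 29 and 57 reads, and at 958.2, 1049 and 979.4 in DMSO cells. The SERPINB2 log2 fold change was 4.59 (SE 0.15, adjusted p 3.21e-13), and its 95% interval ran from 19.5-fold to 29.9-fold. Per kb, SERPINB2 remained below SERPINE2 in DMSO cells, at 522.3 ± 24.9 against 3357 ± 111 normalized counts (SD, n = 3).

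The second comparison asked what palbociclib changed in irradiated cells. SERPINB2 and PLAU were lower than with DMSO under every scaling. SERPINE2 and PLAUR were called higher as deposited, but with libraries at the same total PLAUR turned to -0.04 and SERPINE2 was left at 0.05. PLAT was not called. These 4 calls of 5 stand beside 48.3% of all tested genes called, 26.0% higher and 22.3% lower. The groups did not overlap for any of the 5 genes, as for 54.8% of all tested genes.

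**Figure D2:**
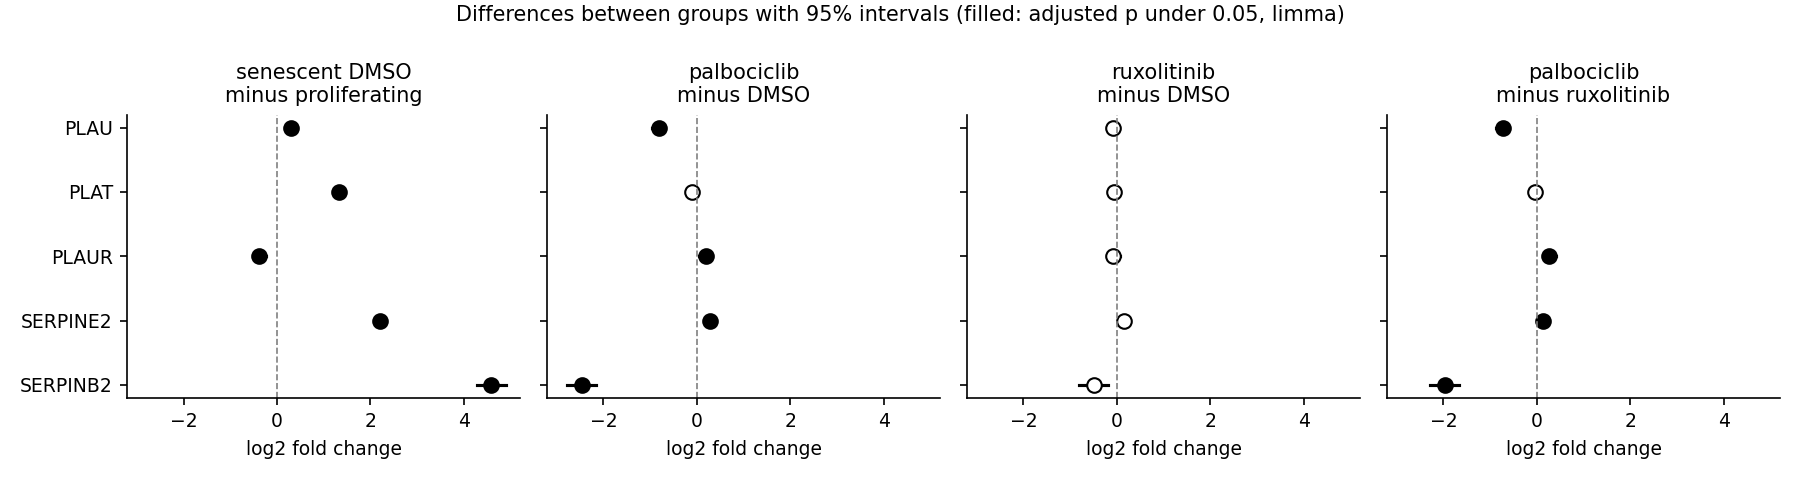
Log2 fold change (horizontal axes) of each gene in 4 comparisons, with 95% intervals and filled points for adjusted p under 0.05 in limma. With palbociclib, SERPINB2 (-2.46) and PLAU (-0.82) lie left of 0 against DMSO, and with ruxolitinib no gene is called.

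SERPINB2 fell to 183.7, 197.0 and 160.8 normalized counts with palbociclib, from 166 to 181 reads. All 3 libraries were far below the lowest DMSO library and above the highest proliferating one. The log2 fold change against DMSO was -2.46 (SE 0.15, adjusted p 3.20e-09 in limma), and the DMSO mean was 5.51 times the palbociclib mean. Against proliferating cells SERPINB2 was still higher, by 2.13 on the log2 scale (SE 0.15, adjusted p 2.20e-09). Across scalings the change against DMSO ran from -2.69 to -2.38 on the log2 scale.

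PLAU fell to 12848, 15480 and 13463 normalized counts with palbociclib. The log2 fold change against DMSO was -0.82 (SE 0.06, adjusted p 6.24e-08 in limma). All 3 libraries were below every library of the other groups, proliferating cells included, from which PLAU differed by -0.51 (SE 0.06, adjusted p 2.05e-06). PLAU thus lay above the proliferating level with DMSO and below it with palbociclib, an order that held under the 3 other scalings. PLAT stood at 15922, 17091 and 17395, all below the lowest DMSO library, the highest by a narrow margin, with a log2 fold change of -0.10 (95% interval -0.20 to 0.005, adjusted p 0.108). PLAT was called lower at the same total (-0.32), the same upper quartile (-0.16) and under quantile normalization (-0.37). Per kb the activators were close in palbociclib cells, at 5945 ± 588 for PLAU and 5488 ± 254 normalized counts for PLAT (SD, n = 3).

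PLAUR stood at 2713, 3377 and 2946 normalized counts with palbociclib, the widest spread of this gene in any group (337 SD, against 48.6 with DMSO). Its log2 fold change of 0.19 (SE 0.07, adjusted p 0.0300 in limma) was 0.10 with an adjusted p of 0.138 without library A120, the highest of the 3, and the call was also lost without A116, A118 or A121 (0.18 to 0.20). SERPINE2 stood at 8941, 9176 and 9126, above every DMSO library, with a log2 fold change of 0.28 (SE 0.05, adjusted p 0.000176). That rise was also called at the same upper quartile, by edgeR and by DESeq2, but came to 0.005 under quantile normalization (adjusted p 0.947). Against proliferating cells SERPINE2 was 2.49 higher on the log2 scale with palbociclib, beside 2.21 with DMSO; these comparisons share the proliferating libraries. In palbociclib against proliferating cells all 5 genes were called, SERPINE2, SERPINB2 and PLAT (1.23) higher and PLAU and PLAUR (-0.20, adjusted p 0.0145) lower. Of all tested genes 73.8% were called there, 35.2% higher and 38.6% lower. The groups did not overlap for 4 of the 5, PLAUR being the exception, as for 70.9% of all tested genes. Without A119 PLAUR differed by -0.12 and was not called.

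The third comparison asked the same of ruxolitinib. None of the 5 genes was called by limma, where 4.52% of all tested genes were called, 1.10% higher and 3.42% lower. At an unadjusted p under 0.05 the count was 2, SERPINB2 and SERPINE2. On the recovered reads, the edgeR quasi-likelihood test called 1 of the 5 and DESeq2 called 2. The groups did not overlap for 4 of the 5 genes, as for 31.9% of all tested genes.

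SERPINB2 stood at 750.0, 639.3 and 733.6 normalized counts with ruxolitinib, all below the lowest DMSO library. Its log2 fold change was -0.49 (95% interval -0.80 to -0.18, adjusted p 0.0732 in limma). Of 11 other settings with all libraries, 4 called this decrease, among them edgeR (-0.49, adjusted p 0.005) and DESeq2 (-0.49, adjusted p 1.86e-05), and the adjusted p ranged from 3.79e-07 to 0.223. Leaving out A120, A126 or A127, none of them in this comparison, also gave a call (-0.49). SERPINE2 stood at 7910, 8474 and 8507, above the DMSO libraries, with a log2 fold change of 0.15 (95% interval 0.05 to 0.25, adjusted p 0.0953). DESeq2 called this increase (0.15, adjusted p 0.0268) and edgeR did not.

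The activators and the receptor differed less with ruxolitinib. PLAU stood at 24013, 22073 and 23266 normalized counts, just under the DMSO libraries, with a log2 fold change of -0.08 (95% interval -0.22 to 0.05, adjusted p 0.593 in limma). PLAT stood at 17247, 16890 and 17855, within reach of the DMSO libraries (-0.05, interval -0.16 to 0.05, adjusted p 0.670). PLAUR stood at 2467, 2429 and 2594, just under the DMSO libraries (-0.08, interval -0.22 to 0.06, adjusted p 0.632). These intervals leave room for changes of either sign, so the levels are not shown to be alike. Against proliferating cells all 5 genes were called with ruxolitinib, with log2 fold changes of 4.10 for SERPINB2, 2.36 for SERPINE2, 1.27 for PLAT, 0.22 for PLAU and -0.46 for PLAUR. At the same total these were 0.42 for PLAU and -0.26 for PLAUR, both still called. In that comparison 72.2% of all tested genes were called, 32.6% higher and 39.5% lower, and 76.2% did not overlap, as did all 5 here.

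The inhibitors were also compared directly at the same dose and days. SERPINB2 was lower with palbociclib than with ruxolitinib by 1.97 on the log2 scale (log2 fold change -1.97, SE 0.15, adjusted p 5.76e-08 in limma). PLAU was lower as well (-0.73, SE 0.06, adjusted p 2.85e-07). PLAUR was higher as deposited (0.27, SE 0.07, adjusted p 0.00482) and SERPINE2 too (0.13, SE 0.05, adjusted p 0.0373), but PLAUR was not called at the same total (0.064, adjusted p 0.455) or under quantile normalization (0.11, adjusted p 0.252). SERPINE2 reversed to -0.07 at the same total and to -0.12 under quantile normalization. That SERPINE2 call was also lost without A116, A120, A121, A122, A123 or A124 (0.10 to 0.15). PLAT did not pass the test (-0.05, 95% interval -0.15 to 0.06, adjusted p 0.484). Of all tested genes, 40.4% were called in this comparison, 22.8% higher and 17.6% lower with palbociclib. The groups did not overlap for 4 of the 5 genes, PLAT being the exception, as for 51.8% of all tested genes.

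**Figure D3:**
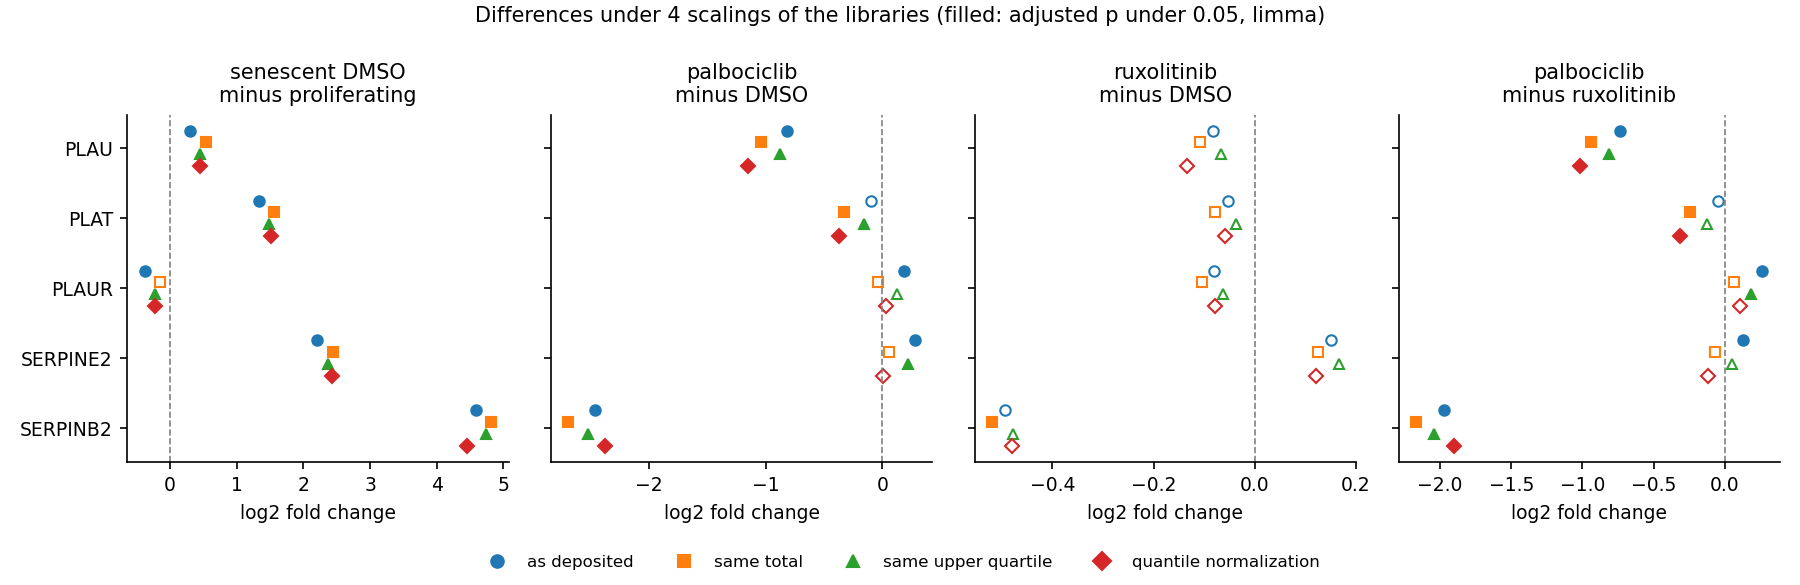
Log2 fold change (horizontal axes, each on its own scale) of each gene in 4 comparisons with the libraries as deposited, at the same total, at the same upper quartile and after quantile normalization, filled where the adjusted p was under 0.05. SERPINB2 and PLAU keep their side of 0 in every panel, whereas PLAUR and SERPINE2 lie near 0 or change side in the palbociclib panels.

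Ratios of 2 genes within a library cannot be moved by a factor applied to the whole library. They are given as a description, without a test. PLAU over PLAT was 2.72 to 2.83 in proliferating libraries, 1.30 to 1.41 with DMSO, 0.774 to 0.906 with palbociclib and 1.30 to 1.39 with ruxolitinib. Urokinase reads thus outnumbered those of the tissue-type activator in every library except the 3 with palbociclib. These ratios are not corrected for transcript length (2343 bases for PLAU, 3062 for PLAT). Per kb PLAU stayed above PLAT in the palbociclib libraries too, at 5484, 6607 and 5746 against 5200, 5582 and 5681 normalized counts. PLAU over its inhibitor SERPINE2 was 12 to 12.9 in proliferating libraries, 3.14 to 3.42 with DMSO, 1.44 to 1.69 with palbociclib and 2.60 to 3.04 with ruxolitinib, so that the 4 groups did not overlap. PLAU over its receptor PLAUR was 5.67 to 5.90 in proliferating libraries and 8.98 to 9.44 with DMSO. That ratio was 4.57 to 4.73 with palbociclib and 8.97 to 9.74 with ruxolitinib. The palbociclib libraries were therefore low for PLAU against each of these 3 partners.

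**Figure D4:**
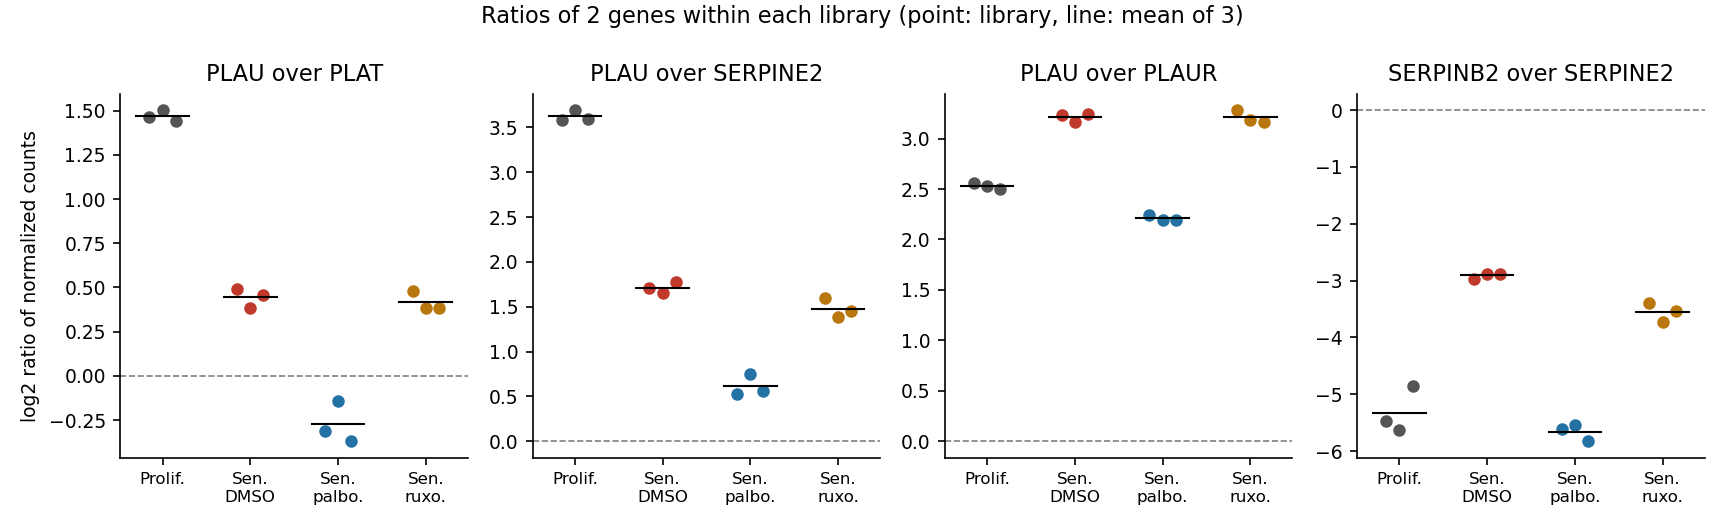
Log2 ratio of normalized counts (vertical axes) of 2 genes within each library by group, with points for libraries and lines for the mean of 3. PLAU over SERPINE2 falls from a mean of 3.62 in proliferating cells to 1.71 with DMSO and 0.61 with palbociclib, and SERPINB2 over SERPINE2 is lowest in proliferating and palbociclib libraries.

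The serpins themselves shifted in relation to each other. SERPINB2 over SERPINE2 was 0.0203 to 0.0344 in proliferating libraries and 0.128 to 0.136 with DMSO. With palbociclib it was 0.0176 to 0.0215, which overlapped the proliferating range although both serpins were higher than in proliferating cells. With ruxolitinib it was 0.0754 to 0.0948, between the DMSO and palbociclib libraries.

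In order of level, PLAU ran from palbociclib over proliferating and ruxolitinib to DMSO without overlap between neighbours, although ruxolitinib and DMSO did not differ in the test. PLAT was lowest in proliferating cells, and its ranges with palbociclib, ruxolitinib and DMSO overlapped from neighbour to neighbour. PLAUR ran from ruxolitinib over DMSO and palbociclib to proliferating, where the last pair overlapped. SERPINE2 ran from proliferating over DMSO and ruxolitinib to palbociclib, and SERPINB2 from proliferating over palbociclib and ruxolitinib to DMSO, both without overlap between neighbours.

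A list of 50 other genes of the plasminogen system, clade B and other serpins, and tissue factor, thrombin and related receptors was examined. Of these, 34 were expressed enough to be tested. In DMSO against proliferating cells 17 rose and 14 fell, or 91.2% called, where 72.4% of all tested genes were called. The median log2 fold change of the 34 was 0.21. With palbociclib against DMSO 15 rose and 8 fell (67.6%, beside 48.3% of all tested genes, list median 0.14). Of the 15 that rose, 3 stayed called under all 3 other scalings and 6 turned to a fall under at least 1. All 8 that fell kept their direction, and 6 of them their call. The same total and the same upper quartile lower this comparison for all genes alike (median shifts -0.23 and -0.061). A fall could therefore not turn to a rise under those 2 scalings. With ruxolitinib 2 fell and none rose (5.88%, beside 4.52%, list median 0.01), and 9 of 34 had an unadjusted p under 0.05. The count of 2 was 0 to 3 with any 1 library left out. It was 0 without A116, A117, A122 or A123, 1 without A118, A121, A124 or A125, and 3 without A126. The edgeR test called 1 lower and none higher there, and DESeq2 called 3 lower and 1 higher.

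**Figure D5:**
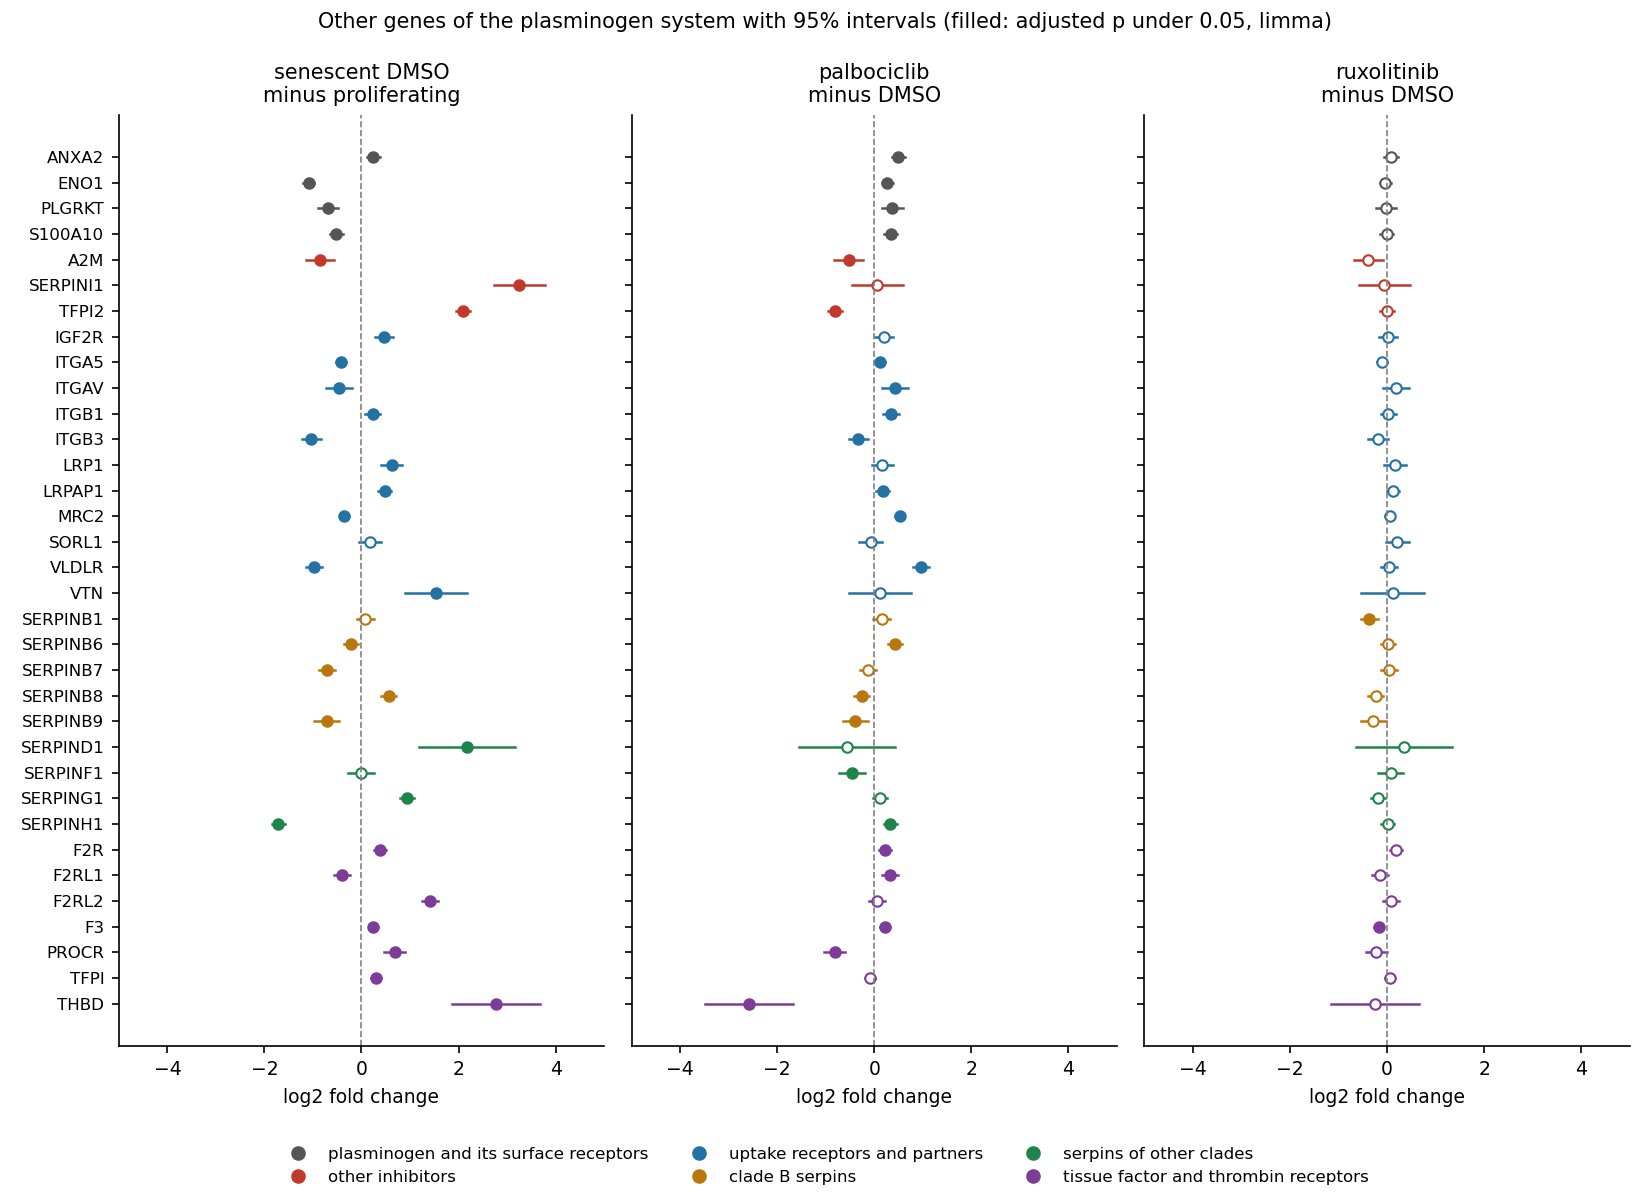
Log2 fold change (horizontal axes) with 95% intervals of the 34 tested genes of the wider system in 3 comparisons, coloured by role and filled where the adjusted p was under 0.05 in limma. TFPI2 and THBD lie right of 0 in DMSO against proliferating cells and left of 0 with palbociclib, and most intervals touch 0 with ruxolitinib.

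The zymogen itself, PLG, had at most 2 reads in any library and none in 9 of 12. Among proteins that hold plasminogen at the cell surface, 3 of 4 fell after irradiation, ENO1 (enolase 1, a glycolytic enzyme, log2 fold change -1.09), PLGRKT (-0.69) and S100A10 (-0.52). Of all tested genes 39.3% were called lower there. The annexin partner of S100A10, ANXA2, rose (0.24). Under other scalings S100A10 ran from -0.37 to -0.29 and ANXA2 from 0.40 to 0.59, all called. With palbociclib all 4 rose as deposited, led by ANXA2 (0.50), beside 26.0% of all tested genes. None of these 4 calls held under every scaling. ANXA2 and ENO1 turned to a decrease under quantile normalization (-0.03 and -0.12).

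Other inhibitors followed different courses. SERPINI1, which encodes neuroserpin, an inhibitor of tissue-type activator, rose from 8.40 ± 3.27 to 84.8 ± 8.07 normalized counts (SD, n = 3; log2 fold change 3.25, adjusted p in limma 9.39e-09). SERPINI1 stood at 89.6 ± 20.2 with palbociclib and 81.8 ± 10.8 with ruxolitinib. TFPI2, a secreted Kunitz inhibitor of plasmin, rose from 1031 ± 89.4 to 4390 ± 85.7 and fell to 2522 ± 207 with palbociclib. A2M, the broad protease trap alpha-2-macroglobulin, fell from 575.1 ± 94.4 to 314.4 ± 22.4 and to 219.9 ± 45.3 with palbociclib. With ruxolitinib A2M stood at 240.2 ± 16.6, not called against DMSO (log2 fold change -0.39). As deposited, A2M was not called between the inhibitors (-0.14). SERPINA5, SERPINF2 and CPB2 had at most 2 reads in any library.

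Among uptake receptors and partners, 5 of 11 rose and 5 fell in DMSO against proliferating cells, beside 33.0% and 39.3% of all tested genes. LRP1, the endocytic receptor that clears activator and serpin complexes, rose (log2 fold change 0.62), and VLDLR, a related receptor, fell (-0.98). With palbociclib VLDLR rose from 340.5 ± 11.3 to 663.6 ± 67.8 normalized counts (SD, n = 3), beside 671.0 ± 28.8 in proliferating cells. MRC2, a collagen receptor that binds the urokinase receptor complex, fell by 0.35 on the log2 scale after irradiation and rose by 0.53 with palbociclib. Under other scalings the MRC2 values ran from -0.20 to -0.12 and from 0.23 to 0.47, all called. ITGB3, an integrin chain that binds vitronectin, fell after irradiation (-1.03) and again with palbociclib (-0.33, and -0.56 at the same total). With ruxolitinib ITGB3 was at -0.19 against DMSO, not called. Palbociclib against ruxolitinib was -0.14 for ITGB3, not called as deposited but called at the same total (-0.34).

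Of 12 other clade B serpins, 7 were too low to test, with at most 8 reads in any library. The highest of these, SERPINB10, had no reads in proliferating libraries, 6 to 8 with DMSO, 0 to 5 with palbociclib and 4 to 5 with ruxolitinib. Of the 5 tested, SERPINB8 rose in DMSO against proliferating cells (0.56), and SERPINB7 (-0.70), SERPINB9 (-0.72) and SERPINB6 (-0.21) fell. Of all tested genes 33.0% were called higher there and 39.3% lower. SERPINB6 was not called under any of the 3 other scalings and turned to 0.02 at the same total. The log2 fold changes of the 5 tested ran from -0.72 to 0.56, beside 4.59 for SERPINB2. With ruxolitinib SERPINB1 fell (-0.36, adjusted p in limma 0.0210). Among serpins of other clades, SERPINH1, a collagen chaperone without protease inhibition, fell from 18835 ± 1524 to 5720 ± 106 normalized counts, and SERPING1, the C1 inhibitor, rose from 522.6 ± 32.7 to 997.6 ± 20.4 (SD, n = 3).

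Thrombin, a target of protease nexin 1, was barely transcribed, with at most 5 reads of F2 in any library. The thrombin receptors F2R (0.37) and F2RL2 (1.41) rose after irradiation, as log2 fold changes. F2RL1, of the same family but not a thrombin receptor, fell (-0.41). At the same total F2R was at 0.60 and F2RL1 at -0.18. THBD, the thrombin-binding protein thrombomodulin, rose from 4.00 ± 2.52 to 29.7 ± 7.10 normalized counts and stood at 4.05 ± 0.63 with palbociclib, from 3 to 5 reads (SD, n = 3; log2 fold change against DMSO -2.59, adjusted p in limma 0.000151). Under quantile normalization the THBD rise was 1.45 on the log2 scale, against 2.76 as deposited. PROCR, the protein C receptor, rose by 0.68 and then fell by 0.82 with palbociclib on the log2 scale. F3, the clotting initiator tissue factor, rose after irradiation (0.24, and 0.47 at the same total) and fell with ruxolitinib (-0.17, adjusted p 0.0421), the latter without a call at the same upper quartile (-0.16).

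For each gene, the 3 genes of most like pattern were sought among 9245 with a mean of at least 100, by Pearson r of log2 values over the 12 libraries. These points share libraries, scaling factors and the 4 groups, so r is a description. PLAU was followed most closely by NFKBIA, an inhibitor of NF-kB (r = 0.986), BTG1, an antiproliferative factor (0.983), and MMP1, interstitial collagenase (0.979). MMP1 stood at 3010 ± 56.0 (proliferating), 6556 ± 152 (DMSO), 1276 ± 157 (palbociclib) and 5539 ± 108 normalized counts (ruxolitinib) (SD, n = 3). SERPINB2 was followed by GNAI1, a G protein subunit (0.992), MMP3, stromelysin 1 (0.992), and EREG, the growth factor epiregulin (0.99). EREG stood at 46.9 ± 3.04, 462.8 ± 13.2, 129.4 ± 24.2 and 405.9 ± 44.1 in the same order of groups. MMP3 stood at 73.7 ± 1.37, 550.8 ± 27.2, 198.8 ± 33.4 and 523.7 ± 13.1.

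Of the genes searched, 10 passed r = 0.95 with PLAU, 99 with SERPINB2, 42 with PLAUR, 496 with PLAT and 618 with SERPINE2. The closest to PLAT were MXI1 (0.999), DCAF8 (0.997) and H2BC5 (0.997). The closest to SERPINE2 were CALCOCO1 (0.998), TSPAN13 (0.997) and the tight junction gene CLDN1 (0.997). The closest to PLAUR were the actin-binding PFN1 (0.978), RANGAP1 (0.977) and MSANTD3 (0.976).

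The labelled cell type was checked against marker lists. All 8 fibroblast markers were above the filter, with summed levels of 813800 to 847600 normalized counts in proliferating, 403700 to 414300 in DMSO, 646600 to 679800 in palbociclib and 510800 to 514800 in ruxolitinib libraries. Most of the proliferating sum was COL1A1 and COL1A2 (means 401324 and 226318). In DMSO against proliferating cells 6 of the 8 were called lower, beside 39.3% of all tested genes. The other 2, THY1 (log2 fold change 0.18) and DCN (0.16), were called higher, also under the 3 other scalings. Of the 6 called lower, 4 kept their call under those scalings. After quantile normalization COL1A2 turned to a rise (0.126) and VIM stayed lower (-0.0859), neither of them called. SERPINB2 is also known from monocytes and PLAT from endothelium. The 5 leukocyte markers summed to 555.2 to 578.0 in proliferating, 1253 to 1335 in DMSO, 702.7 to 819.0 in palbociclib and 1115 to 1174 in ruxolitinib libraries. Most of this was CD68, a lysosomal protein (1232 ± 46.8 in DMSO cells, SD, n = 3), and the other 4 markers were low. Of the 3 tested, all were called higher with DMSO than in proliferating cells and lower with palbociclib than with DMSO. None was called with ruxolitinib against DMSO. Of all tested genes 33.0% were called higher in the first of these comparisons and 22.3% lower in the second. CD68 kept both calls under the 3 other scalings. After quantile normalization the CSF1R rise with DMSO (log2 fold change 0.07) was not called. Nor were the falls of CD14 (-0.607) and CSF1R (-0.845) with palbociclib. CD14 stood at 4.03 ± 2.64 normalized counts in proliferating, 28.2 ± 1.92 in DMSO, 13.01 ± 5.15 in palbociclib and 16.0 ± 4.59 in ruxolitinib cells, and CSF1R at 9.16 ± 1.98, 20.2 ± 1.56, 7.51 ± 4.79 and 26.1 ± 3.33 (SD, n = 3). ITGAM, too low to test, had 0 to 1 reads in proliferating, 5 to 10 in DMSO, 1 to 4 in palbociclib and 6 to 22 in ruxolitinib libraries, and PTPRC had at most 10 reads in any library. As deposited, the 3 tested markers thus rose with DMSO and fell with palbociclib, as SERPINB2 did. With ruxolitinib against DMSO, CSF1R was higher (log2 fold change 0.35), while CD14 (-0.82), CD68 (-0.17) and SERPINB2 (-0.49) were lower, all without a call. In palbociclib against proliferating cells CSF1R was lower (-0.455, not called), where SERPINB2, CD14 and CD68 were called higher. The part of these markers in the change of SERPINB2 was not tested. The 4 endothelial markers summed to 1681 to 1949, 2381 to 2544, 3500 to 4380 and 2241 to 2247 in the same order. Nearly all of this was TEK, called higher with DMSO than in proliferating cells (log2 fold change 0.41) and higher again with palbociclib (0.70). VWF was called higher with DMSO too, at 5.04 ± 2.45 normalized counts in proliferating and 19.1 ± 7.38 in DMSO cells (SD, n = 3). Under quantile normalization this VWF rise was 0.445 on the log2 scale and was not called. PECAM1, too low to test, had 2 reads in each proliferating library and 8 to 11 with DMSO, 4 to 6 with palbociclib and 13 to 17 with ruxolitinib. CDH5 had at most 3 reads and none in 8 libraries. The part of these markers in the rise of PLAT was not tested. The 4 epithelial markers summed to at most 45.4. In bulk RNA, a change in the number of cells that express a gene and a change of RNA per cell cannot be told apart.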

How the data were processed

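The values are normalized counts, a signal that the authors deposited as gene reads divided by a factor per library. The submitters' processing notes name Trimmomatic 0.38.1, HISAT2 2.2.1, featureCounts 2.0.3, FastQC 0.74, MultiQC and DESeq2 2.11.40.8, and the builds hg38 and GRCh38. Of the values above 0, 160380 of 160380 (100%) were whole multiples of what 1 read was worth in their library, at a tolerance of 0.01, and whole reads were recovered. Totals are those of the listed genes.

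Each column names its group and a library (A116 to A127), without a replicate, and was assigned to that group. limma 3.58.1 (R 4.3.3) was fitted to log2(normalized count + 1), with 4 group means over 12 libraries and variances that follow the mean, and adjusted over 11242 genes. Fold changes are on the log2(value + 1) scale, which understates changes of low genes. On the recovered reads, edgeR 4.0.16 called 8150 genes between DMSO and proliferating cells, 5374 between palbociclib and DMSO and 556 between ruxolitinib and DMSO (limma 8134, 5432 and 508). DESeq2 1.42.0 was a further alternative. Others were pseudocounts, filters, scalings, no trend, 2-group fits and leaving out each library.

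The genes and lists were chosen with earlier results of these data known. Named genes are the 5 chosen, list genes (those called and abundant first) and the 3 of most like pattern per gene. Promoters come from RefSeq (GRCh38.p14), where 4 of the 5 genes were used and PLAT was left out.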

Additional observations from a re-analysis of the deposited data

How the results depend on the processing

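No paired analysis was possible because the columns of the table carry no replicate numbers. Over the 5 genes and 6 comparisons, 297 of 330 values from alternatives with all libraries kept direction and side of the threshold, and 346 of 360 with 1 library left out. SERPINB2 and PLAU kept theirs in every comparison and setting except SERPINB2 between ruxolitinib and DMSO. There SERPINB2 was called at the same total (-0.52), with 2 groups (-0.49), edgeR (-0.49) and DESeq2 (-0.49), and it ranged from -0.54 to -0.42 with 1 library left out, called without A126, A127 or A120. SERPINE2 in that comparison was called with 2 groups (0.15) and DESeq2 (0.15). The causes were not tested.

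Palbociclib against DMSO: PLAT was called at the same total (-0.32), the same upper quartile (-0.16), quantile normalization (-0.37) and DESeq2 (-0.12). PLAUR was not called with no filter, no trend or 2 groups (0.19 in each), the same upper quartile (0.125), quantile normalization (0.0296) or edgeR (0.17), and reversed at the same total (-0.0408). It ranged from 0.10 to 0.26 with 1 library left out, and was not called without A116, A118, A120 or A121. SERPINE2 was not called at the same total (0.0548) or after quantile normalization (0.00455).

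Palbociclib against ruxolitinib: PLAT was called at the same total (-0.25) and after quantile normalization (-0.32), and PLAUR with neither (0.064 and 0.11). SERPINE2 was not called at the same upper quartile (0.0538), without a trend or with 2 groups (0.13), with edgeR (0.10) or DESeq2 (0.11), and turned to -0.0706 at the same total and -0.12 after quantile normalization. It ranged from 0.10 to 0.15 with 1 library left out, and was not called without A116, A120, A121, A122, A123 or A124. Against proliferating cells, PLAUR was not called in DMSO cells at the same total (-0.15), nor in palbociclib cells at the same upper quartile (-0.10) or with 2 groups (-0.20). The last ranged from -0.28 to -0.12, not called without A119.

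The counts of the 5 genes moved with these calls. The 2 lower with palbociclib became 3 against DMSO (same total, same upper quartile, quantile normalization, DESeq2) and 3 against ruxolitinib (same total, quantile normalization). With palbociclib against DMSO, 2 were higher, 1 with no filter, no trend, 2 groups, the same upper quartile or edgeR, 0 at the same total or after quantile normalization, and 1 to 2 with 1 library left out. Against ruxolitinib, 2 were higher, 1 at the same upper quartile, with no trend, 2 groups, edgeR or DESeq2, 0 at the same total or after quantile normalization, and 1 to 2 with 1 library left out. With ruxolitinib against DMSO, 0 were higher, 1 with 2 groups or DESeq2, and 0 were lower, 1 at the same total, with 2 groups, edgeR or DESeq2, and 0 to 1 with 1 library left out. Lower than proliferating were 1 with DMSO (0 at the same total) and 2 with palbociclib (1 at the same upper quartile or with 2 groups, 1 to 2 with 1 library left out).

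Of the list of 34, the 15 higher with palbociclib than with DMSO became 4 (same total) and 5 (quantile normalization), and the 8 lower became 7 to 11 over all settings. Against ruxolitinib 14 higher became 7 and 8, and 6 lower became 12 at the same total. With ruxolitinib against DMSO, 0 higher became 1 at the same upper quartile or with DESeq2, 4 with 2 groups and 0 to 1 with 1 library left out. In that comparison 2 lower became 1 with no filter, the same upper quartile or edgeR, 0 without a trend, 7 with 2 groups and 0 to 3 with 1 library left out. With 1 library left out, the group mean of a within-library log2 ratio moved most for SERPINB2 over SERPINE2 in proliferating cells, from -5.55 to -5.17. SERPINB2 in proliferating cells rests on 29 to 57 reads.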
